A study of Mus musculus with 2 samples.

Results

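The genes described here encode macrophage receptors and adaptors that signal through immunoreceptor tyrosine-based motifs, measured by RNA-Seq in LPS-stimulated macrophages. They are 10 genes, chosen by gene symbol from a table of 37451, and comprise the Fcγ receptors *Fcgr1*, *Fcgr2b*, *Fcgr3* and *Fcgr4*, the adaptors *Fcer1g* and *Tyrobp*, the TREM receptors *Trem1* and *Trem2*, and the C-type lectins *Clec4e* and *Clec7a*. Only 4 of the 10 genes are Fcγ receptors in the strict sense, and the other 6 share adaptors or signaling routes with them. All 10 were present in the table, each as 1 gene.

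The data were 2 RNA-Seq libraries made from bone marrow-derived macrophages (BMDMs) of mice aged 7 to 9 weeks on a C57BL/6 background, with 1 library per genotype. WT BMDMs came from littermates, and whether these carried floxed alleles or Cre is not given in the sources used here. ΔM BMDMs were TTP fl/fl LysMCre, that is, both alleles of *Zfp36* were floxed and Cre was expressed from the lysozyme M locus, which is active in myeloid cells, so other cells of the mouse kept TTP. Both genotypes were grown in medium with CSF-1 from L929 cells. For 16 h they received the uridine analog 4-thiouridine (4sU) at 100 μM, and for 6 h LPS at 10 ng/ml, as the protocol states, although the titles of both libraries read LPS7. The libraries served as RNA-Seq controls without crosslinking for the mapping of TTP binding, so no unstimulated library enters the comparison. Values were FPKM, fragments per kilobase of transcript scaled to the mapped fragments of the library, so that levels of different genes could be compared per length. About 37100000 fragments stood behind the WT values and about 32800000 behind the ΔM values, as estimated from the steps between low FPKMs. With 1 library per genotype there was no replicate error and no test was possible. The 95% intervals given here are approximate Poisson intervals on the estimated fragment numbers, cover counting error only and say nothing about differences between cultures or mice. In bulk RNA, fewer cells of a type and less RNA per cell cannot be told apart.

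Fcγ receptors bind the constant part of IgG on opsonized particles and immune complexes. The activating receptors FcγRI, FcγRIII and FcγRIV have no signaling motif of their own and pair with the FcRγ chain (*Fcer1g*), whose immunoreceptor tyrosine-based activation motif (ITAM) recruits the kinase Syk after phosphorylation by Src family kinases. FcγRIIB instead carries an inhibitory motif (ITIM) and recruits phosphatases that oppose the activating receptors. Mincle, the product of *Clec4e*, also uses FcRγ, whereas TREM receptors pair with DAP12 (*Tyrobp*) and Dectin-1 (*Clec7a*) carries an ITAM-like motif in its own tail. In macrophages these receptors drive phagocytosis and cytokine production, and LPS is a known inducer of *Clec4e*. TTP, the product of *Zfp36*, binds AU-rich elements in RNA and promotes decay of mRNAs that carry them in the 3′ untranslated region (UTR).

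The study mapped TTP and HuR, another AU-rich element binder, to RNA by crosslinking in LPS-treated BMDMs. It also measured expression and mRNA decay in WT and ΔM BMDMs with 3 biological replicates, in separate libraries that are not used here. Its site lists for 6 h of LPS, from which the stretches below come, give the mm9 position and letters of bound stretches. For 4 of these genes, 1 stretch each is printed here to show where on the transcript, and in which letters, binding was placed. This is a selection, and the HuR list holds a further stretch of *Fcgr4* that is not shown. The letters were read from the NCBIM37 (mm9) genome, were identical to those listed, run 5′ to 3′ on the strand of the transcript with T for U, and have the bound stretch in capitals and flanks in lower case.
Fcgr1, TTP, chr3:96095058-96095075, minus strand: accacaAAATTATTTTCTTTTCTTtttttt
Fcgr2b, TTP, chr1:172900425-172900442, minus strand: aaagatTTATTTATTTATTCATTTatttaa
Clec4e, TTP, chr6:123232234-123232236, minus strand: gttttatgttacCTTtattatattgtg
Fcgr4, HuR, chr1:172959554-172959564, plus strand: cagcagaaATAATACAAAGgccccttc
The *Fcgr1* stretch lay in intron 3 of a transcript of 6 exons, 1101 nt into an intron of 5020 nt. The *Fcgr2b* stretch lay in intron 1 of a transcript of 8 exons, 5590 nt into an intron of 6406 nt. It held the heptamer TATTTAT at 2 overlapping positions, whereas the other 3 stretches with their flanks held neither TATTTAT nor the pentamer ATTTA. The *Clec4e* stretch of 3 nt lay in the 3′ UTR in exon 6, the last exon, and the *Fcgr4* stretch lay in the 3′ UTR in exon 5, also the last exon.

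**Figure D1:**
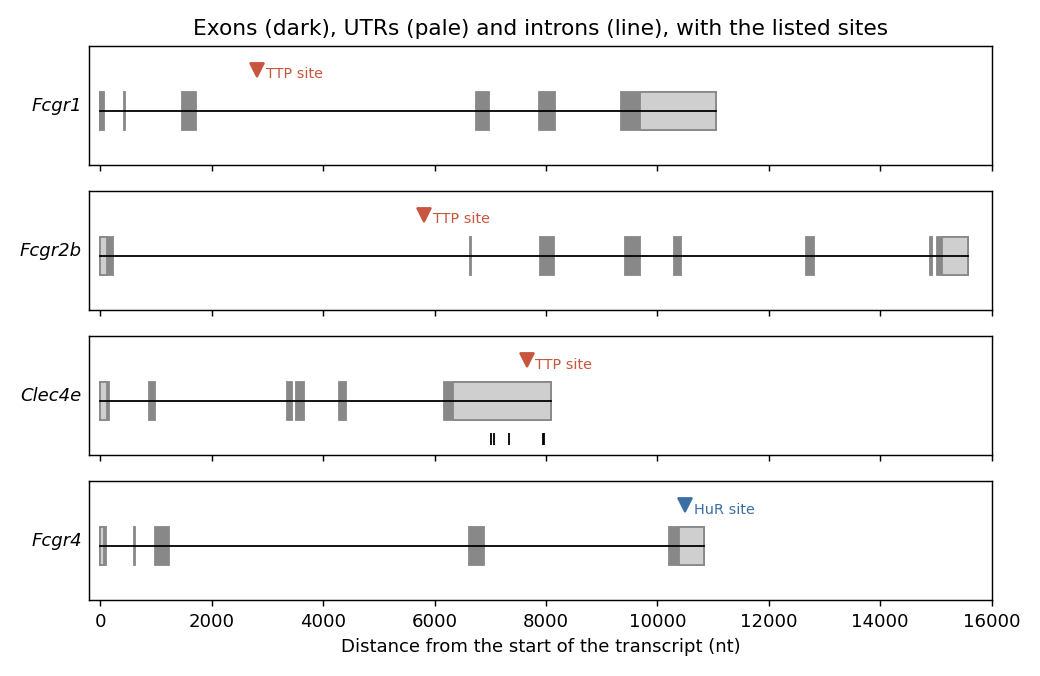
Map of the printed TTP and HuR stretches (triangles), 1 per gene, on 1 annotated transcript of each gene, with distance from the transcript start in nt on the horizontal axis. Dark blocks are coding exons, pale blocks UTRs, lines introns, and ticks under *Clec4e* mark the 5 ATTTA pentamers of its 3′ UTR. The TTP stretches of *Fcgr1* and *Fcgr2b* sit in introns, 2817 and 5816 nt from the start, and the TTP stretch of *Clec4e* and the HuR stretch of *Fcgr4* sit in the last exon.

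The 3′ UTRs of all 10 genes were searched on the transcript strand for ATTTA and for TATTTAT, with overlapping matches counted and the longest annotated 3′ UTR taken for each gene. *Clec4e* held 5 ATTTA pentamers in 1751 nt and *Clec7a* held 1 in 1448 nt. The other 8 members held none, although the UTRs of *Fcgr1* (1589 nt) and *Trem1* (2275 nt) were of similar length or longer. TATTTAT was found in none of the 10. Of all 20007 genes with an annotated 3′ UTR, 61.3% held ATTTA and 23.8% held TATTTAT. Among the 1423 UTRs within 10% of the length of the *Clec4e* UTR, 85.2% held at least 1 ATTTA and 23.8% held at least 5. Short UTRs hold these letters less often. *Tyrobp*, *Trem2*, *Fcer1g*, *Fcgr4*, *Fcgr2b* and *Fcgr3* have UTRs of 168 to 499 nt. Among UTRs within 10% of these lengths, 23.6% to 47.1% held ATTTA and 5.70% to 11.7% held TATTTAT. For *Fcgr1* and *Trem1* the share with ATTTA was 82.3% and 90.8%. The pentamer nearest to the printed TTP stretch of *Clec4e* began 292 nt downstream of the start of the stretch. A match to these letters is a description of the sequence and not a binding site.

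The targeted gene *Zfp36*, at chr7:29161803-29164274 on the minus strand, was at 65.26 FPKM in the library labelled WT against 16.71 FPKM in that labelled ΔM, a log2 ratio of -1.90. The library labelled ΔM thus held less *Zfp36* mRNA, and which exons were floxed is not given in the sources used here.

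Of the 10 genes, 9 had a mean of at least 1 FPKM over both libraries and entered the comparison, and *Trem1* did not. Ratios were calculated after adding 1 FPKM to both values, which understates the change of low genes. No member differed 2-fold between ΔM and WT, against 9.31% of all 10765 genes compared and 2.51% of the 8078 protein-coding genes among them. Without the minimum of 1 FPKM, 4.41% of 24164 genes differed 2-fold and 9.81% differed 1.5-fold. A 1.5-fold difference was reached by 1 of the 9, *Clec4e*, which was lower in ΔM. That is 11.1% of the members, against 18.7% of all genes and 10.2% of protein-coding genes, a share close to that of protein-coding genes in general. In the lower direction the background was 7.51% of all genes and 5.36% of protein-coding genes. Of the 9 members, 6 were higher in ΔM and 3 were lower, and a higher value in ΔM was found for 53.8% of all genes and 49.5% of protein-coding genes. The median log2 ratio of the 9 members was 0.10, against 0.03 over all genes compared.

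**Figure D2:**
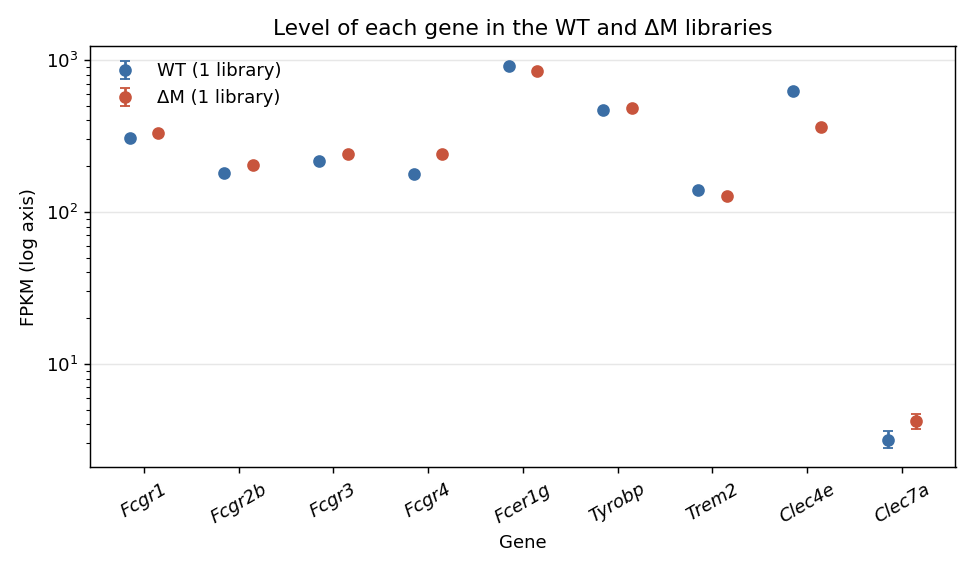
FPKM on a log axis of the 9 genes whose mean reached 1 FPKM, in the WT library (blue) and the ΔM library (red), with bars for the 95% counting interval, which is smaller than most points. *Clec7a* sits at 3.16 and 4.19 FPKM, the others sit between 127.73 and 908.13 FPKM, and the widest gap between the libraries is that of *Clec4e*.

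Levels were high for all members except *Clec7a* and *Trem1*. In WT the order from the highest was *Fcer1g*, *Clec4e*, *Tyrobp*, *Fcgr1*, *Fcgr3*, *Fcgr2b*, *Fcgr4*, *Trem2*, *Clec7a* and *Trem1*, and the only neighbours whose counting intervals overlapped were *Fcgr2b* and *Fcgr4*. In ΔM *Tyrobp* stood above *Clec4e*, and *Fcgr4* stood above *Fcgr2b* and next to *Fcgr3*, with which its interval overlapped. The other places in the order were the same in both libraries. *Fcer1g* was the 19th most abundant protein-coding gene by FPKM in WT and the 18th in ΔM, whereas *Clec4e* went from place 34 to place 77.

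All 4 Fcγ receptors were somewhat higher in ΔM, by 1.07-fold to 1.35-fold. *Fcgr1*, at chr3:96086832-96098179 on the minus strand, encodes the high-affinity receptor FcγRI. It was at 306.32 FPKM in WT against 328.71 FPKM in ΔM, and its log2 ratio of 0.10 had a counting interval of 0.08 to 0.13. It had the highest level of the 4 receptors in both libraries and the smallest difference between them.

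*Fcgr3*, at chr1:172981300-172995066 on the minus strand, encodes FcγRIII, a low-affinity activating receptor. Its level was 217.13 FPKM in WT against 242.26 FPKM in ΔM, with a log2 ratio of 0.16 and an interval of 0.12 to 0.20. *Fcgr2b*, at chr1:172890689-172906678 on the same strand, encodes the inhibitory receptor FcγRIIB. Its values of 179.79 FPKM in WT against 203.63 FPKM in ΔM gave a log2 ratio of 0.18 with an interval of 0.14 to 0.22. The ratios of the activating *Fcgr3* and the inhibitory *Fcgr2b* lay within each other's intervals. These genes are near copies over part of their length, and 44 of the 1700 stretches of 100 nt in the *Fcgr2b* transcripts also occurred in *Fcgr3*, so that reads of that part could not be assigned to 1 gene where only unique reads were kept. The other 8 members shared no stretch of this length with any annotated protein-coding transcript of another gene.

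*Fcgr4*, at chr1:172949051-172959892 on the plus strand, encodes FcγRIV, an activating receptor for IgG2a and IgG2b. It was at 176.68 FPKM in WT against 239.69 FPKM in ΔM, which was 1.35-fold higher. The log2 ratio of 0.44 had an interval of 0.39 to 0.48, which did not overlap those of the other 3 receptors. In WT *Fcgr4* was the lowest of the 4 receptors, and in ΔM it stood level with *Fcgr3*. Among the 384 protein-coding genes whose mean reached 100 FPKM, a set chosen after the values were seen, 22 genes or 5.73% had a log2 ratio at least as high as that of *Fcgr4*, itself included. A gene for a U1 small nuclear RNA lies on the same strand within the last intron of *Fcgr4*, at chr1:172958096-172958260, and was at 417.30 FPKM in WT against 939.92 FPKM in ΔM. This U1 gene is 165 nt long, shorter than the fitted mean fragment length of 200 nt, and short RNAs cannot be resolved with these values. Its part in the *Fcgr4* value was not tested.

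Summed over the 4 receptors, the level was 879.92 FPKM in WT against 1014.29 FPKM in ΔM. *Fcgr4* made up 20.1% of this sum in WT and 23.6% in ΔM, while the share of *Fcgr1* was 34.8% in WT and 32.4% in ΔM. *Fcgr3* made up 24.7% and 23.9%, and the inhibitory *Fcgr2b* 20.4% and 20.1%, in WT and ΔM. The shift in composition was thus mostly between *Fcgr4* and *Fcgr1*. The activating receptors *Fcgr1*, *Fcgr3* and *Fcgr4* together were at 700.13 FPKM in WT against 810.66 FPKM in ΔM. Their sum was 3.89 times the level of *Fcgr2b* in WT and 3.98 times in ΔM, and the counting interval of the ratio of these quotients, 0.989 to 1.06, included 1. With *Fcgr3*, which shares stretches with *Fcgr2b*, left out of the sum, the ratio was 1.04. Its interval of 1.01 to 1.07 was calculated with the fragments of *Fcgr3* still counted. It is thus too narrow for this quotient, with a lower end close to 1, and no difference is read from it.

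The adaptors differed little. *Fcer1g*, at chr1:173159703-173164496 on the minus strand, encodes the FcRγ chain and lies with *Fcgr2b*, *Fcgr4* and *Fcgr3* in a stretch of 274 kb on chromosome 1. It was the member with the highest level, at 908.13 FPKM in WT against 843.37 FPKM in ΔM, with a log2 ratio of -0.11 and an interval of -0.15 to -0.07. The adaptor was thus lower in ΔM while its 3 Fcγ receptor partners were higher, and *Fcer1g* over the summed activating receptors was 1.30 in WT and 1.04 in ΔM. With *Clec4e*, a further partner of FcRγ, added to the receptors, the quotient was 0.687 in WT and 0.720 in ΔM. The direction of this balance thus depended on whether *Clec4e* was counted among the partners. These quotients compare mRNA levels, not protein.

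*Tyrobp*, at chr7:31198807-31202596 on the plus strand, encodes DAP12, the ITAM adaptor of TREM receptors. Its level was 467.26 FPKM in WT against 481.09 FPKM in ΔM, with a log2 ratio of 0.04. The interval of -0.01 to 0.09 included 0, and *Tyrobp* was the only one of the 9 members compared for which it did. Transcripts of both adaptors are short, with an annotated length of 564 nt for *Tyrobp* and a median of 517.5 nt for *Fcer1g*, so that their FPKM depends more on the assumed fragment length than that of the longer members. This bears on their level against other genes and less on their ratio between the libraries.

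*Trem2*, at chr17:48485726-48493472 on the plus strand, encodes a receptor for lipids and lipoproteins. It was at 140.16 FPKM in WT against 127.73 FPKM in ΔM, a log2 ratio of -0.13 with an interval of -0.20 to -0.07. The level of *Tyrobp* was 3.33 times that of *Trem2* in WT and 3.77 times in ΔM. *Trem1*, at chr17:48371903-48386091 on the plus strand, encodes a receptor that amplifies inflammatory signals and is abundant on neutrophils. It was listed at 0 in WT, while its 0.06 FPKM in ΔM corresponds to about 5 fragments, and no fold was calculated. Both TREM genes lie on chromosome 17, and only *Trem2* was detected at an appreciable level in these BMDMs.

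The C-type lectins differed widely in level. *Clec4e*, at chr6:123231807-123239889 on the minus strand, encodes Mincle, a receptor for mycobacterial cord factor. It was at 621.82 FPKM in WT against 360.02 FPKM in ΔM, from an estimated 53488 and 27379 fragments. This was the largest difference among the 9 members compared, 1.73-fold lower in ΔM, with a log2 ratio of -0.79 and an interval of -0.81 to -0.77. The interval was far from those of the other 8 members.

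Few abundant genes differed this much in this direction. Of the 384 protein-coding genes whose mean reached 100 FPKM, 2.86% were at least 1.5-fold lower in ΔM, and 6.25% differed by this fold in either direction. Of the 384 genes, 6 had a log2 ratio at or below that of *Clec4e*, itself included. The other 5 were *Gm17590*, *Lcn2*, *Tnfaip2*, *Lyz2* and *Hmgn3*, named for this value. *Lyz2*, the gene whose locus carries the Cre in ΔM, was at 2480.86 FPKM in WT against 1356.26 FPKM in ΔM.

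*Clec7a*, at chr6:129411611-129422790 on the minus strand, encodes Dectin-1, a receptor for fungal β-glucan. Its level was 3.16 FPKM in WT against 4.19 FPKM in ΔM, from about 243 and 284 fragments. The log2 ratio of 0.32 had an interval of 0.07 to 0.57, the widest of the 9 members compared, which overlapped that of every Fcγ receptor. *Clec7a* was therefore far below *Clec4e* in both libraries and differed from it in direction.

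**Figure D3:**
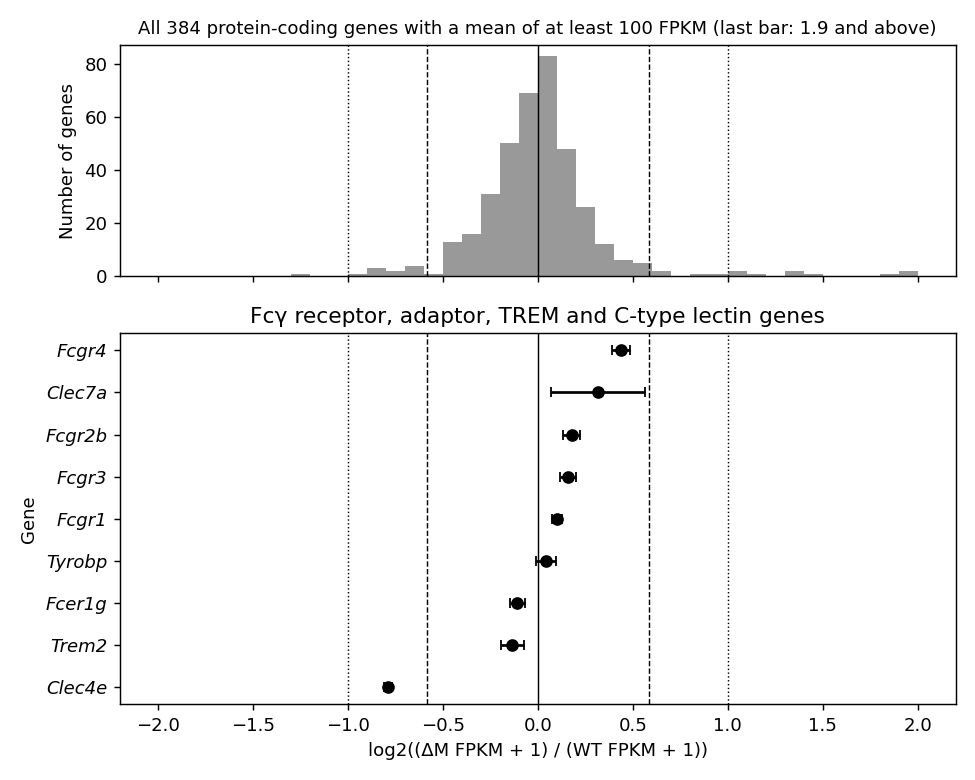
Lower panel, log2 ratio of ΔM to WT after adding 1 FPKM for the 9 members, with bars for the 95% counting interval; upper panel, the number of genes per bar of 0.1 for the 384 protein-coding genes whose mean reached 100 FPKM (all values of 1.9 and above in the last bar). Dashed lines mark 1.5-fold and dotted lines 2-fold, and *Clec4e* at -0.79 is the only member outside the dashed lines, while *Fcgr4* at 0.44 is the highest.

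The other genes of this pathway were described with 5 lists, of which 74 genes had a mean of at least 1 FPKM. Of the 74, 10 genes or 13.5% differed at least 1.5-fold, 6 higher and 4 lower in ΔM, and 2 differed 2-fold, against 10.2% and 2.51% of protein-coding genes. These shares were near those of protein-coding genes in general. Among other Fc receptors, 3 of 12 genes reached 1 FPKM, none of them differed 1.5-fold, and their median log2 ratio was 0.17. *Trim21*, a cytosolic antibody receptor, was the highest of them, at 23.41 FPKM in WT against 18.84 FPKM in ΔM. *Fcrls*, an Fc receptor-like gene, had the highest ratio, with 9.59 FPKM in WT against 11.53 FPKM in ΔM.

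Among other receptors that couple to an ITAM, 14 genes entered, 3 were at least 1.5-fold higher and none lower, with a median log2 ratio of 0.09. *Gp49a*, of the leukocyte immunoglobulin-like receptor family, was the highest of this list, at 225.44 FPKM in WT against 202.54 FPKM in ΔM. Whether its product couples to an ITAM was not examined here. *Cd300lb*, a receptor that pairs with DAP12, stood out with 4.09 FPKM in WT against 11.92 FPKM in ΔM, 2.54-fold on this scale. *Pilrb1* had the lowest ratio, at 2.14 and 1.81 FPKM. The 3 higher genes were all expressed below 10 FPKM as a mean.

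Of 12 inhibitory receptors with an ITIM that entered, 1 was at least 1.5-fold higher and 1 lower, and the median log2 ratio was -0.03. The higher gene, *Clec4a2*, no longer reached 1.5-fold when ratios were centred on the median of all genes. *Cd72*, an inhibitory lectin-like receptor, was the highest, at 205.52 FPKM in WT against 230.76 FPKM in ΔM. *Clec4a2*, which encodes the inhibitory lectin DCIR, was at 29.49 FPKM in WT against 44.98 FPKM in ΔM. *Cd300a*, a receptor that recognizes phosphatidylserine, was at 9.63 FPKM in WT against 4.80 FPKM in ΔM.

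Downstream of the receptors, 29 genes of ITAM and hemITAM signaling entered, of which 1 was at least 1.5-fold higher and 2 were lower, with a median log2 ratio of -0.04. *Fgr*, a Src family kinase, had the highest ratio of the list, with 30.90 FPKM in WT against 53.38 FPKM in ΔM. *Malt1*, the paracaspase that acts with CARD9 and BCL10 behind Dectin-1 and Mincle, was at 22.12 FPKM in WT against 9.57 FPKM in ΔM, 2.19-fold lower. These genes were named as the highest and lowest ratio of the list, so their opposite directions follow from the choice.

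Of 16 negative regulators that entered, 1 was at least 1.5-fold higher and 1 lower, with a median log2 ratio of 0.09. *Ptpn6*, which encodes the phosphatase SHP-1 and was the highest of them, was at 678.01 FPKM in WT against 409.63 FPKM in ΔM. *Inpp5d*, which encodes SHIP1, the lipid phosphatase recruited by FcγRIIB, was at 8.92 FPKM in WT against 18.82 FPKM in ΔM. These genes were named as the lowest and highest ratio of the list. Other phosphatases of the list differed little, with *Ptpn11* at 8.79 FPKM in WT against 8.88 FPKM in ΔM and *Inppl1* at 32.40 FPKM in WT against 30.40 FPKM in ΔM.

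**Figure D4:**
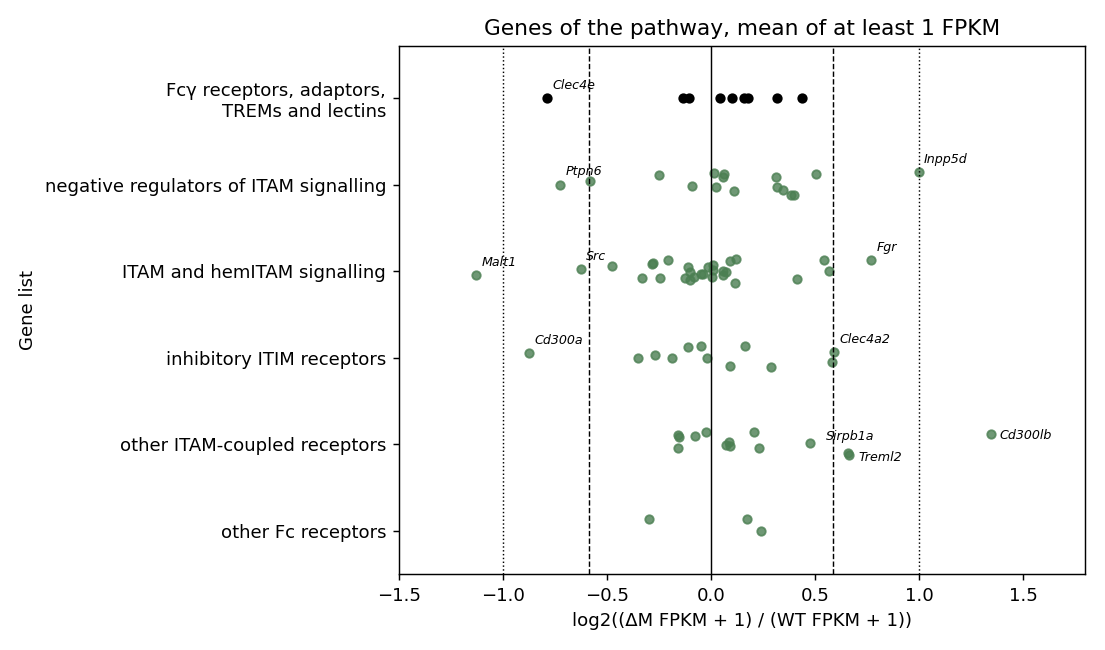
Log2 ratio of ΔM to WT after adding 1 FPKM for each gene whose mean reached 1 FPKM in 5 pathway lists (green) and for the 9 members (black), spread vertically within a list for legibility. Dashed lines mark 1.5-fold and dotted lines 2-fold, and 10 of 74 list genes lie outside the dashed lines, *Cd300lb* farthest to the right and *Malt1* farthest to the left.

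Genes closest to a member in both libraries were sought by the distance between their log2(FPKM + 1) values, over 2 libraries and all protein-coding genes. Nearest to *Fcer1g*, the highest member, were *Il1b*, *Eif4g2* and *Il1rn*, at distances of 0.19 to 0.25. *Il1b* was at 874.57 FPKM in WT against 740.58 FPKM in ΔM. Nearest to *Clec4e*, the member with the largest difference in either direction, were *Ptpn6*, *Tnip3* and *Irg1*, at distances of 0.22 to 0.34. *Tnip3* was at 511.09 FPKM in WT against 334.66 FPKM in ΔM, and the direction of these genes follows from the way they were chosen. With 2 libraries, such a likeness rests on 2 values per gene.

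The labelled cell type was compared with marker genes. The macrophage markers *Emr1*, *Cd68* and *Csf1r* had 379.89, 387.55 and 104.15 FPKM in WT against 357.09, 389.58 and 119.22 FPKM in ΔM. Of 7 macrophage markers that entered, 1 was at least 1.5-fold lower in ΔM, *Lyz2*, and 1 was higher, *Mrc1*, with 5.45 FPKM in WT against 11.56 FPKM in ΔM. Not all markers of this list were high. *Mertk* was at 2.15 FPKM in WT against 3.48 FPKM in ΔM. *Cd163*, at 0.06 FPKM in WT against 0.02 FPKM in ΔM, did not enter. *Cd14* was at 116.90 FPKM in WT against 109.75 FPKM in ΔM. Markers of T and NK cells, B cells, mast cells, dendritic cells and fibroblasts summed to between 0.38 and 1.70 FPKM per list and library. Of 7 neutrophil markers, which bear on *Trem1* and *Fcgr4*, the granule genes *Elane* and *Ngp* and the surface marker *Ly6g* were listed at 0 in both libraries. *S100a9* of this list was also at 0 in both, and such a 0 can be a failed estimate. *Mpo* was listed at 0.09 FPKM in WT against 0.05 FPKM in ΔM, and *Camp*, like *Trem1*, at 0 in WT, with 0.41 FPKM in ΔM. The part of such cells in the *Trem1* value was not tested. The list's sum was 50.79 FPKM in WT against 100.48 FPKM in ΔM, nearly all of it from *S100a8*, which stimulated macrophages also express.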

How the data were processed

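RNA-Seq was measured in 1 WT and 1 ΔM library. According to the methods, RNA was depleted of rRNA, fragmented and sequenced as paired ends, and adapters were removed. Reads were aligned to mm9 with Segemehl, reads with several positions were discarded, and Cufflinks gave the expression of Ensembl genes. The values deposited by the authors are FPKM per gene, rounded to 2 decimals, and no model for counts was applied to them. Restricting to unique reads lowers the values of genes with near copies.

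Of 37451 genes, 37039 were found in the GENCODE M1 annotation of NCBIM37 (mm9), and the start of 99.1% of these was the same. Log2 ratios used a pseudocount of 1 FPKM and were limited to genes whose mean reached 1 FPKM. No p-values were calculated. Depth was estimated as the number of fragments that makes the low values of genes with 1 annotated transcript whole multiples of 1 fragment. This held for 87.3% of values in WT and 88.4% in ΔM within 0.0051 FPKM, against 11.1% and 9.84% by chance. The mean fragment length of 200 nt behind these shares was fitted in the same search and was not measured. Fragments of a member used its median transcript length. Scripts ran in Python 3.11.15 and were tested on simulated data. The members and lists were chosen with earlier results of these data known. Named are all members, *Zfp36*, the genes of each list with the highest level, highest ratio and lowest ratio, and the 3 nearest genes of a pair of members; others were named after their values were seen, and 1 gene that this rule selects is not reported here. *Pira1* and *Pira6* had no match, and older symbols (*Emr1* for *Adgre1*) were matched through RefSeq. Site positions and letters, not scores, came from the study's lists, with 1 site taken per gene and not every listed site shown. Protein sequences were not analysed here.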

Additional observations from a re-analysis of the deposited data

How the results depend on the processing

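Under 5 alternatives (a pseudocount of 0.1 FPKM or none, centring on the median of genes of at least 1 or 10 FPKM, and scaling to the same protein-coding sum), 1 member, *Clec4e*, differed 1.5-fold each time, none of 45 member values changed sign and 4 left their counting interval. The log2 ratio of *Zfp36* stayed between -1.97 and -1.90. Centring moved ratios by 0.03 or 0.04. The number of genes at least 2-fold different, 1002 as described, was 436 with a minimum of 10 FPKM, 203 for protein-coding genes and 10 for those of at least 100 FPKM, and for 1.5-fold, 2010 as described, it was 890, 822 and 24. Fewer genes entered each time, and the share past 2-fold was 9.89%, 2.51% and 2.60%, so that it was lower among protein-coding genes. With no minimum the shares were 4.41% for 2-fold and 9.81% for 1.5-fold. The pathway lists held 6 such genes of 44 with the minimum of 10 FPKM, and 15 with a pseudocount of 0.1 FPKM, and centring changed the split of 6 higher and 4 lower to 5 and 5. Without *Fcgr3* the activating sum in ΔM over that in WT was 1.18 in place of 1.16. The same ratio for the activating sum over *Fcgr2b* was 1.04 in place of 1.02. Its counting interval still used the fragments of *Fcgr3*, so whether that interval includes 1 is not read from it. Depth from transcripts of 150 to 400 nt, an alternative added after seeing the data like the minimum of 100 FPKM, was 36900000 fragments in WT and 32700000 in ΔM. No paired analysis was possible because there was 1 library per genotype and no test. Short RNAs, isoform shares and differences within counting error cannot be resolved with these values.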

Other observations

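*Clec4e* lies at one end of a cluster of C-type lectin genes of 337 kb on chromosome 6, whose other members were lower in level than *Clec4e*. Those with a mean of at least 1 FPKM, *Clec4d*, *Clec4n*, *Clec4a2* and *Clec4a3*, were all higher in ΔM. Their log2 ratios were 0.09, 0.23, 0.59 and 0.60. *Clec4d*, 6520 nt away on the other strand, encodes a lectin that forms a complex with Mincle, and it was at 132.82 FPKM in WT against 141.37 FPKM in ΔM. *Clec4a3* was at 12.67 FPKM in WT against 19.72 FPKM in ΔM, and *Clec4n*, which encodes Dectin-2, at 2.71 and 3.36 FPKM. *Clec4b1*, at 1.08 and 0.67 FPKM, and *Clec4b2*, at 0.11 and 0.06 FPKM, were lower in ΔM, as was the pseudogene *Gm5883*, at 1.19 and 0.52 FPKM. *Clec4a4*, at 0.33 FPKM in WT against 0.74 FPKM in ΔM, was higher. *Clec4a4* and the 3 lower genes stayed under the minimum mean of 1 FPKM. The genes of this cluster were named after their values were seen.

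*S100a9*, whose product pairs with that of *S100a8*, was listed at 0 in both libraries, while *S100a8* was at 50.70 FPKM in WT against 100.02 FPKM in ΔM. A listed 0 in a table without counts can be a failed estimate. *Sdhc*, a respiratory chain gene between *Fcgr3* and *Fcer1g* on chromosome 1, was at 142.33 FPKM in WT against 121.53 FPKM in ΔM.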
